A study of Neurospora crassa with 8 samples.

Results

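The transcriptome of a *Neurospora crassa* strain without WHITE COLLAR-2 (Δ*wc2*) was compared with that of the wild type (*wt*) in constant light. The comparison rests on 2 of the 8 samples of the series, 1 library per genotype, and on all genes that had 20 or more reads in at least 1 of these libraries. Of the 9733 genes that were counted, 8213 met this minimum. Of the other 1520 genes, 437 had no read in both libraries and 1083 had at most 19 reads.

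WC-2 is a GATA-type zinc finger protein. It forms the white collar complex (WCC) with the blue light photoreceptor WC-1, and the WCC is the transcription factor that activates light-inducible genes and the circadian clock gene *frq*. Among the known outputs of the WCC are *vvd*, which encodes a second blue light photoreceptor that dampens the light response, the genes for carotenoid synthesis, DNA repair genes and genes that are expressed when the mycelium forms asexual spores (conidia).

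The *wt* strain was 74-OR23-1VA. The genotype of the mutant is Δ*wc2*::hyg, in which a hygromycin resistance cassette replaces the gene, and a Δ*wc1*::hyg strain was treated in the same way. All 3 were mycelia from liquid culture that were kept for 48 h under constant light at 25 °C. The labels do not give the parents of the knockout strains, so the loss of the gene and the background of the strain cannot be told apart. A second experiment with *wt* (24 h of darkness followed by 0, 30, 60 or 120 min of light, strand-specific libraries) shares no library with the constant light samples and served to define light-induced genes.

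The exon counts added up to 26210537 reads in *wt*, 22215526 in Δ*wc2* and 22445139 in Δ*wc1*. The 2 genes with the most reads took up 25.7% of the *wt* reads and 20.5% of the Δ*wc2* reads. Counts of Δ*wc2* were therefore divided by the median of the gene-wise ratios to *wt* (0.960) and not by the total. Read numbers below are raw counts, while ratios and folds are calculated from scaled counts. The brackets after a fold give its exact 95% interval, which covers the counting error only. With 1 library per genotype there is no estimate of the spread between cultures and no p-value. All differences are differences between these libraries.

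A gene was called lower or higher in Δ*wc2* when its ratio to *wt* was beyond 2-fold. By this rule 843 genes (10.3% of those compared) were lower and 610 (7.43%) were higher, 17.7% in either direction. The interval as a whole was beyond 2-fold for 475 of the lower genes (5.78% of those compared) and for 355 of the higher genes (4.32%). More than 4-fold differences were seen for 207 lower and 112 higher genes, and more than 16-fold differences for 29 lower and 9 higher genes. The large differences were thus more often losses than gains. The median log2 ratio of all compared genes was 0.00, the quartiles were -0.44 and 0.41, and the 5th and 95th percentiles were -1.47 and 1.19. The split between lower and higher genes depends on the scaling. With division by the summed exon counts the median of all genes moves up by 0.18 on the log2 scale, 628 genes are lower and 833 are higher, so that lower genes make up 43.0% instead of 58.0% of the calls. Changes are given relative to the median gene in the following. Near the minimum, the 31 genes that had 20 reads in the higher library and reads in both had a median ratio of 0.625 and the 33 genes with 19 reads, which were left out, had a median ratio of 0.603.

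**Figure D1:**
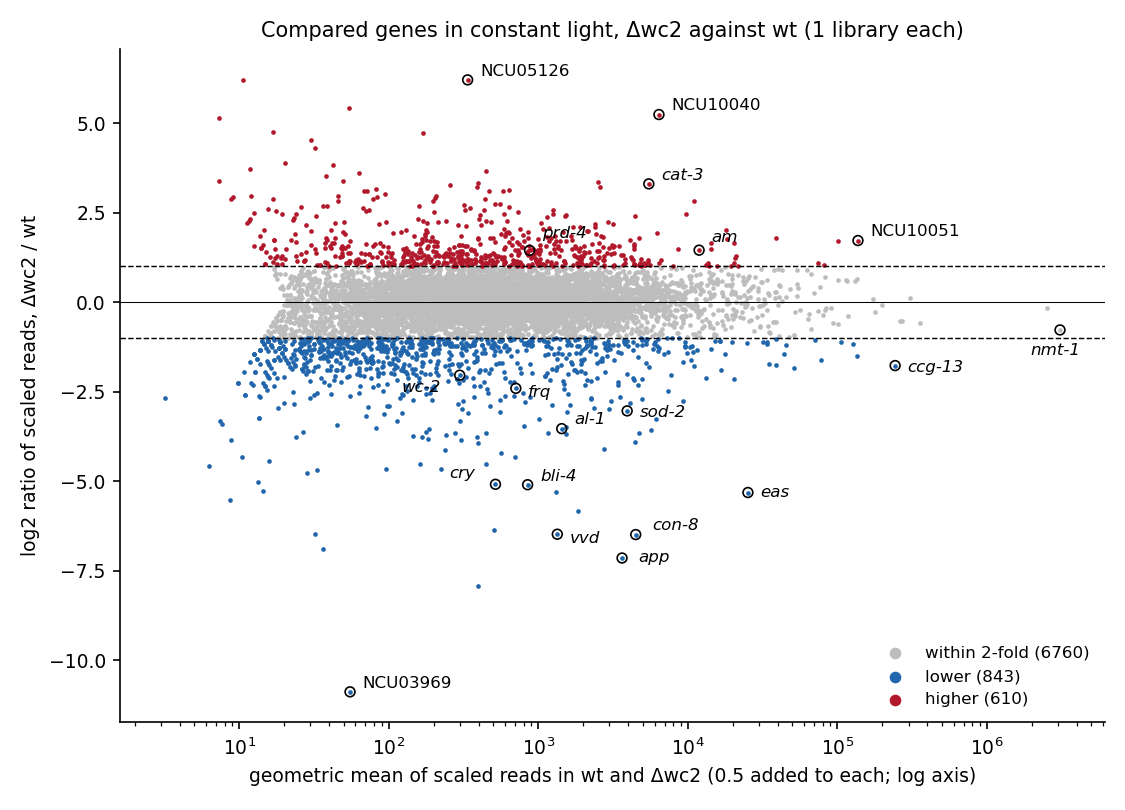
Log2 ratio of scaled reads (Δ*wc2* over *wt*) of the 8213 compared genes against the geometric mean of their reads in both libraries (log axis), with genes called lower in blue (843), genes called higher in red (610) and 2-fold limits as dashed lines. The named genes *vvd*, *con-8*, *app* and *eas* lie more than 16-fold below *wt* at high read numbers, and NCU05126 and NCU10040 lie as far above it.

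The targeted gene was checked first. *wc-2* (NCU00902) had 605 reads in *wt*, 141 in Δ*wc2* and 922 in Δ*wc1*. It was 4.12-fold lower in Δ*wc2* than in *wt* (3.42 to 4.98), so its reads were reduced but not absent. The loss was uneven along the gene, which has 4 exon lines in the files. The line with the most reads, the second, had 303 reads in *wt* and 3 in Δ*wc2*, a 96.9-fold difference. The first line had 230 reads in *wt* and 53 in Δ*wc2*. The third line, with 70 and 54 reads, was almost as high in Δ*wc2* as in *wt*. The fourth line had 2 reads in *wt* and 31 in Δ*wc2*. The label of the Δ*wc2* library is thus borne out by the second exon line, where reads of the gene were nearly missing, while reads remained at either end. In Δ*wc1* the same 4 lines had 474, 320, 127 and 1 reads.

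*wc-1* (NCU02356), the partner of *wc-2*, had 332 reads in *wt* and 252 in Δ*wc2*, a ratio of 0.791 (0.669 to 0.934). Both of its exon lines were close to *wt* in Δ*wc2*, with 88 and 63 reads on the first and 244 and 189 reads on the second. Transcripts of the photoreceptor gene were therefore still present in the strain that lacks *wc-2*. The Δ*wc1* library had 3 reads on the first line and 1287 on the second.

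**Figure D2:**
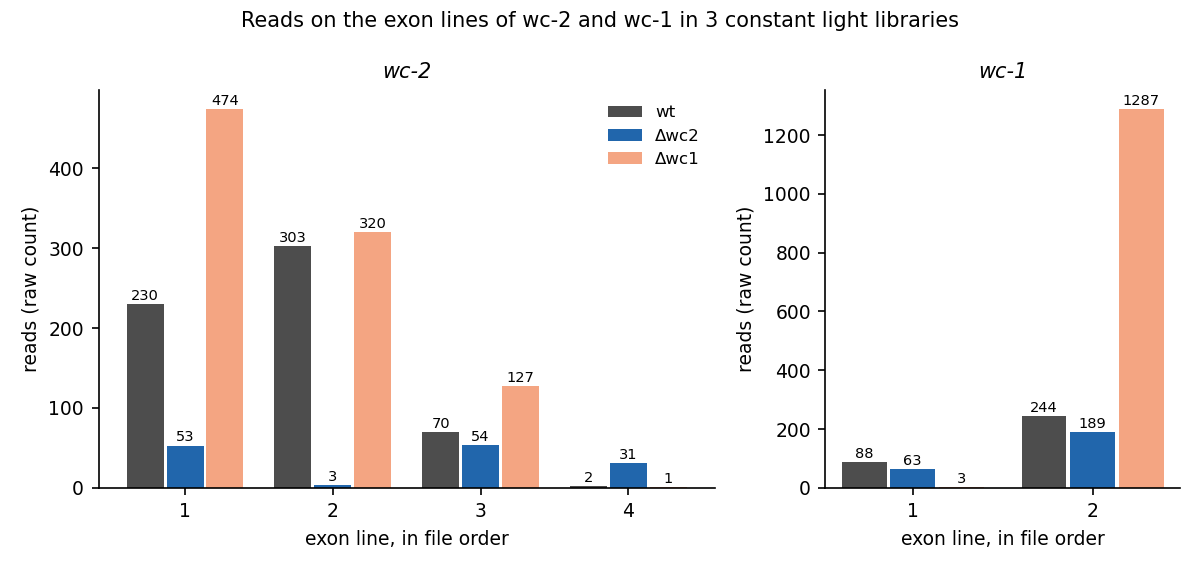
Raw reads on the exon lines of *wc-2* (left, 4 lines) and *wc-1* (right, 2 lines), in file order, in *wt* (grey), Δ*wc2* (blue) and Δ*wc1* (orange), 1 library each. The second line of *wc-2* drops from 303 reads in *wt* to 3 in Δ*wc2*, and the first line of *wc-1* holds 3 reads in Δ*wc1*.

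The genes next to *wc-2* by their numbers are NCU00903 and *uvs-6* (NCU00901), which encodes a RAD50-type DNA repair protein. NCU00903 had 13485 reads in *wt*, 31694 in Δ*wc2* and 9230 in Δ*wc1*, and was 2.45-fold higher in Δ*wc2* than in *wt*. *uvs-6* had 268 reads in *wt* and 364 in Δ*wc2*, a ratio of 1.42 (1.21 to 1.66). NCU00905 was also called higher, with 1103 reads in *wt* and 2621 in Δ*wc2*, and so was NCU00899 with 889 and 1711 reads. NCU00904 (ratio 1.70) and NCU00900 (1.31) were within 2-fold. Among the 37 compared genes within 20 genes on either side of *wc-2*, 5 were higher, 2 were lower and the median log2 ratio was 0.26. Of all compared genes, 7.43% were higher and 10.3% were lower. NCU00903, NCU00904, *uvs-6* and NCU00900 overlap other annotated genes. Reads of overlapping genes cannot be told apart in these libraries, for which no strand is stated.

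*mus-51* and *mus-52*, the genes of the Ku proteins that are often deleted in hosts for gene replacement, had reads in both libraries. *mus-51* had 154 reads in *wt* and 202 in Δ*wc2*, and *mus-52* had 184 and 227. These are reads summed per gene, and the exon lines of the 2 genes were not examined. The sum cannot show that a gene is intact, since *wc-2* itself kept 141 reads in Δ*wc2*.

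Of the 10 genes for light input and the clock, 3 were lower and 1 was higher in Δ*wc2*, with a median log2 ratio of -0.27. Of all compared genes, 10.3% were lower and 7.43% were higher. *vvd* (NCU03967) had the largest difference among the 10 genes. It had 12684 reads in *wt*, 136 in Δ*wc2* and 384 in Δ*wc1*, and was 89.5-fold lower in Δ*wc2* than in *wt* (75.6 to 107). *frq* (NCU02265) had 1632 reads in *wt*, 295 in Δ*wc2* and 382 in Δ*wc1*, and was 5.31-fold lower (4.69 to 6.03). In the strand-specific libraries 42.1% of the reads on *frq* were antisense, so the reads counted here can stem from either strand. The remaining genes of the clock were nearer to *wt*. *frh*, the RNA helicase that binds FRQ, had 267 and 359 reads in *wt* and Δ*wc2* (ratio 1.40). The casein kinase gene *ck-1a* had 14913 and 9976 reads (0.697), and *fwd-1*, whose product targets FRQ for degradation, had 802 and 1054 (1.37). The catalytic subunit of casein kinase 2, *cka*, had 2584 and 2147 reads (0.866), and the corepressor gene *rco-1* had 1536 and 1510 (1.02). *prd-4*, which encodes a checkpoint kinase, was the member that was higher. It had 531 reads in *wt*, 1387 in Δ*wc2* and 3104 in Δ*wc1*, and was 2.72-fold higher in Δ*wc2* than in *wt* (2.46 to 3.01).

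Of the other photoreceptor genes, 3 of 4 compared were lower and none was higher, against 10.3% and 7.43% of all compared genes. The cryptochrome gene *cry* (NCU00582) had 3016 reads in *wt* and 85 in Δ*wc2*, and was 34.1-fold lower (27.5 to 42.8). The opsin gene *nop-1* (NCU10055) had 275 and 30 reads and was 8.80-fold lower (6.02 to 13.3). NCU01735, a member of this list that has no symbol in the RefSeq table, had 9358 and 1985 reads and was 4.53-fold lower. The phytochrome genes differed from these. *phy-1* had 58 reads in *wt* and 71 in Δ*wc2*, with an interval of the ratio from 0.889 to 1.84, and *phy-2* had 17 and 18 reads, which is below the minimum.

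The genes for carotenoid synthesis were all below *wt*, but only 2 of 5 were called lower, against 10.3% of all compared genes. The 2 called genes were those of the early steps that are specific to carotenoids. *al-1* (NCU00552), the phytoene dehydrogenase gene, had 4891 reads in *wt*, 405 in Δ*wc2* and 401 in Δ*wc1*, and was 11.6-fold lower in Δ*wc2* than in *wt* (10.5 to 12.9). *al-2* (NCU00585), the phytoene synthase gene, had 16701, 4994 and 5716 reads and was 3.21-fold lower (3.11 to 3.31). The other members were not called. *al-3*, whose product makes the geranylgeranyl precursor, had 403 and 296 reads (ratio 0.765), and the torulene oxygenase gene *cao-2* had 753 and 387 (0.535). *ylo-1*, the aldehyde dehydrogenase of the last step, had 12600 and 10458 reads (0.865). The median log2 ratio of the list was -0.90. Both photorepair genes were lower. The photolyase gene *phr* had 794 reads in *wt* and 203 in Δ*wc2* and was 3.75-fold lower, and the endonuclease gene *mus-18* had 135 and 41 reads and was 3.16-fold lower (2.21 to 4.60).

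Among the light-responsive transcription factor genes, 1 was lower, 1 was higher and 2 were within 2-fold. Of all compared genes, 10.3% were lower and 7.43% were higher. *sah-1* (NCU04179), which is required for normal aerial hyphae, had 3142 reads in *wt* and 651 in Δ*wc2* and was 4.63-fold lower (4.26 to 5.05). *sub-1* (NCU01154) went the other way, with 128 reads in *wt*, 266 in Δ*wc2* and 318 in Δ*wc1*, and was 2.17-fold higher in Δ*wc2* than in *wt* (1.75 to 2.69). In *wt* both genes were light-induced after darkness, *sah-1* up to 3.29-fold and *sub-1* up to 6.59-fold. The repressor gene *csp-1* had 1159 and 947 reads (ratio 0.851), and *adv-1* had 342 and 516 (1.57). *bek-1* (NCU00097 by its RefSeq symbol) had 15 and 4 reads and was not compared.

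**Figure D3:**
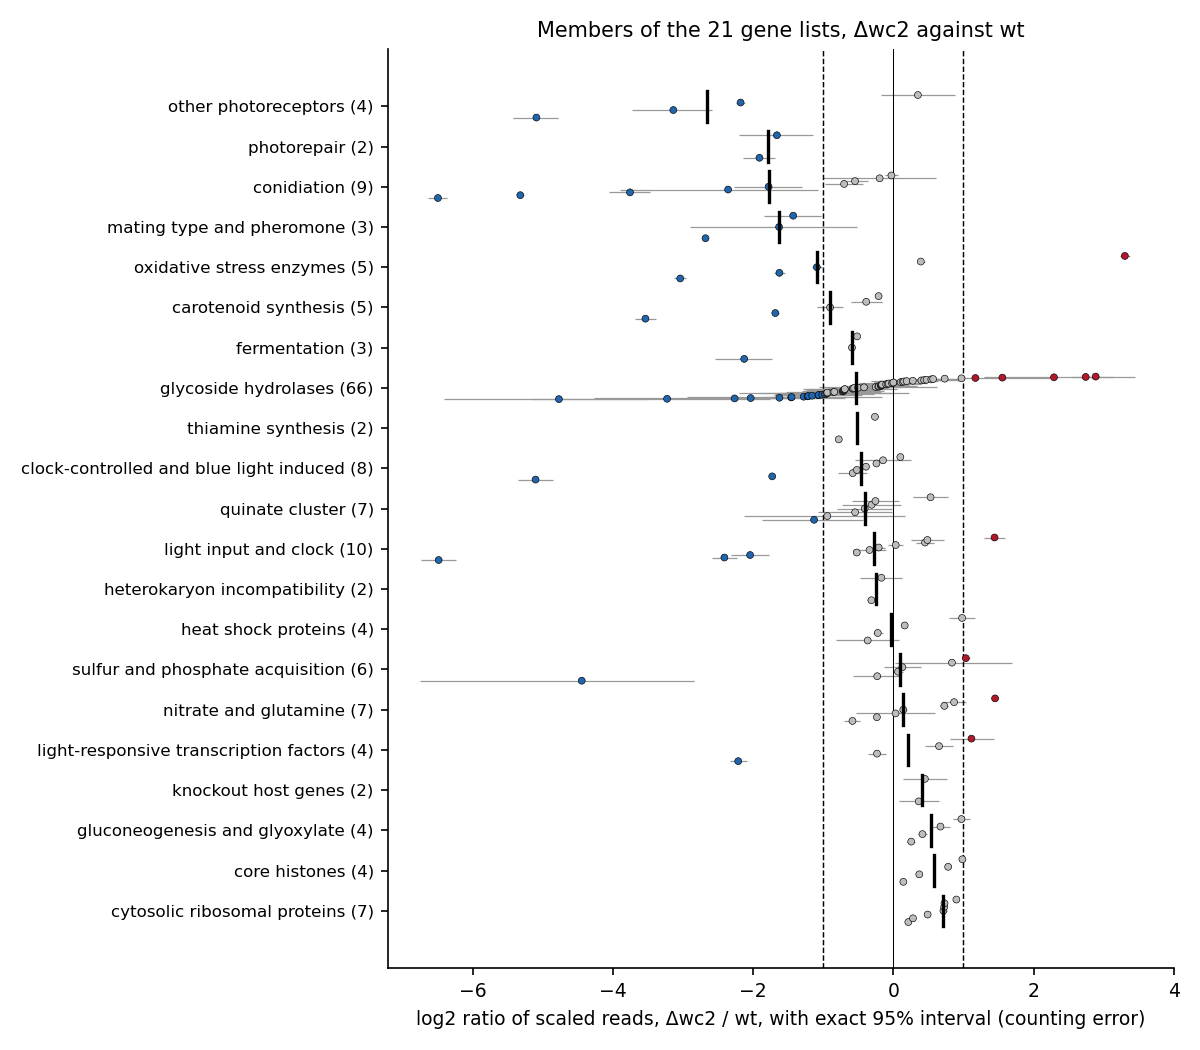
Log2 ratio of scaled reads (Δ*wc2* over *wt*) of each compared member of the 21 gene lists, ordered by the list median (black bar), with exact 95% intervals (grey lines, counting error only), lower genes in blue, higher genes in red and 2-fold limits as dashed lines. Numbers in brackets are compared members. The photoreceptor, photorepair, conidiation, mating and oxidative stress lists have medians below -1, and the ribosomal protein and histone lists have medians of 0.72 and 0.58 with no member beyond 2-fold.

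Of the 10 conidiation genes, 9 were compared and 5 were lower, none higher, against 10.3% and 7.43% of all compared genes. The median log2 ratio was -1.78. The 5 lower genes are those that mark conidia and conidiophores. *eas* (NCU08457), the hydrophobin of the conidial rodlet layer, had 159799 reads in *wt*, 3840 in Δ*wc2* and 2035 in Δ*wc1*, and was 39.9-fold lower in Δ*wc2* than in *wt* (38.7 to 41.3). *con-8* (NCU09235) had 42642, 454 and 306 reads and was 90.2-fold lower (82.2 to 99.1). *con-10* (NCU07325) had 1435, 102 and 67 reads and was 13.5-fold lower. All 3 were thus low in both knockout libraries. *con-6* had 168 reads in *wt* and 47 in Δ*wc2* (3.43-fold lower), and *con-13* had 32 and 6 (5.12-fold lower). In the strand-specific libraries 98.9% of the reads on *con-13* were antisense, so its reads counted here can stem from either strand. Together these 5 genes took up 0.779% of the *wt* reads and 0.0200% of the Δ*wc2* reads, and their summed reads were 204076 in *wt* and 4449 in Δ*wc2*. The labelled tissue is mycelium, and no list of mycelial markers was used. In RNA from whole cultures, fewer conidiating cells and less RNA of these genes per cell cannot be told apart. The part of conidial cells in the other differences was not tested.

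The regulators of conidiation were much closer to *wt* than these markers. *fl*, the major activator, had 581 reads in *wt* and 382 in Δ*wc2* (ratio 0.685). *rca-1* had 310 and 183 (0.615), *csp-2* 1787 and 1684 (0.982) and *acon-2* 31 and 26 (0.874). None of these 4 genes was beyond 2-fold, against 17.7% of all compared genes. *acon-3* with 8 reads in each library was not compared.

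Of the 8 clock-controlled and blue light induced genes, 2 were lower, against 10.3% of all compared genes. *bli-4* (NCU08699) had 4973 reads in *wt* and 139 in Δ*wc2* and was 34.3-fold lower (29.0 to 40.9). *bli-3* (NCU07267) had 63212, 18329 and 6678 reads in *wt*, Δ*wc2* and Δ*wc1*, and was 3.31-fold lower in Δ*wc2* than in *wt* (3.26 to 3.37). The *ccg* genes of the list were within 2-fold. The list does not hold all *ccg* genes, so it does not describe these genes as a whole. For example, *ccg-13* (NCU08907), which is not in it, was 3.42-fold lower. *ccg-1*, which is also repressed by glucose, had 80919 reads in *wt* and 65758 in Δ*wc2* (ratio 0.847), while it had 20544 reads in Δ*wc1*. The glyceraldehyde-3-phosphate dehydrogenase gene *gpd-1* had 134348 and 98459 reads (0.764), and *ccg-14* had 322538 and 215980 (0.698). *ccg-6*, *ccg-8* and *ccg-9* had ratios of 1.07, 0.670 and 0.904.

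The enzymes that detoxify oxygen radicals and peroxide differed in both directions, with 3 of 5 lower and 1 higher. The shares of all compared genes were 10.3% lower and 7.43% higher. The mitochondrial superoxide dismutase gene *sod-2* (NCU01213) had 11285 reads in *wt*, 1318 in Δ*wc2* and 1579 in Δ*wc1*, and was 8.22-fold lower in Δ*wc2* than in *wt* (7.76 to 8.71). *cat-1*, the catalase found mainly in conidia, had 5736 and 2586 reads and was 2.13-fold lower (2.03 to 2.23). The catalase-peroxidase gene *cat-2* had 5614 and 1748 reads and was 3.08-fold lower. In contrast, *cat-3* (NCU00355), the catalase of growing hyphae, had 1749 reads in *wt*, 16568 in Δ*wc2* and 24113 in Δ*wc1*, and was 9.87-fold higher in Δ*wc2* than in *wt* (9.39 to 10.4). The copper and zinc superoxide dismutase gene *sod-1* had 4503 and 5674 reads (ratio 1.31). The catalase genes *cat-1* and *cat-3* were thus on opposite sides of *wt*.

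Mating type and pheromone genes had few reads. *matA-1* (NCU01958) had 20 reads in *wt* and 0 in both Δ*wc2* and Δ*wc1*. With a floor of 3 reads per library it was 6.40-fold lower in Δ*wc2*, a value set by the floor. The lower end of the exact interval, which also covers the counting error of the *wt* reads, was 4.74-fold. *matA-1* was the only gene with 20 or more reads in *wt* and none in Δ*wc2*. No gene had 20 or more reads in Δ*wc2* and none in *wt*. *matA-2* and *matA-3* had no read in the 3 libraries. The labels give no mating type, and the mating type of the strain and an effect of the deletion cannot be told apart. The pheromone receptor genes *pre-1* and *pre-2* were both lower, *pre-1* with 199 reads in *wt* and 71 in Δ*wc2* (2.69-fold, 2.04 to 3.58) and *pre-2* with 29 and 9 (3.09-fold, 1.43 to 7.43). The pheromone gene *ccg-4* had 5 and 2 reads and was not compared.

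Genes of primary metabolism were mostly within 2-fold of *wt*, as were most compared genes, of which 17.7% were beyond 2-fold. Of the 7 nitrogen genes only *am* (NCU01195), the NADP-dependent glutamate dehydrogenase, was called. It had 7210 reads in *wt*, 18926 in Δ*wc2* and 9155 in Δ*wc1*, and was 2.73-fold higher in Δ*wc2* than in *wt* (2.66 to 2.81). The glutamine synthetase gene *gln-1* had a ratio of 1.66, the GATA factor gene *nit-2* of 1.82 and the nitrate reductase gene *nit-3* of 0.668. The 4 genes for gluconeogenesis and the glyoxylate cycle were all above *wt* but within 2-fold, from 1.19 for *acu-5* to 1.96 for *acu-3*, the isocitrate lyase gene. With division by the summed exon counts *nit-2* and *acu-3* pass the 2-fold limit. The fermentation genes *cfp* (pyruvate decarboxylase) and *adh-1* (alcohol dehydrogenase) had ratios of 0.665 and 0.699, and NCU02476 had 282 and 62 reads and was 4.37-fold lower. The thiamine genes *nmt-1* and *thi-4* (NCU07849, which has this symbol in the RefSeq table) had ratios of 0.583 and 0.834.

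Nutrient acquisition genes did not move together. The sulfur regulator gene *cys-3* had 3891 reads in *wt* and 7653 in Δ*wc2* and was 2.05-fold higher, but the lower end of its interval (1.97) was below 2. The phosphate permease gene *pho-5* had 68 reads in *wt*, 3 in Δ*wc2* and 4 in Δ*wc1*, and its ratio of 0.046 had an interval from 0.00925 to 0.14. The sulfate permease gene *cys-14* (1.05), the phosphate regulator gene *nuc-1* (1.09) and *pho-4* (0.853) were near *wt*. Of the 7 quinate genes, only *qa-X* was lower, with 57 and 25 reads, and the list had a median log2 ratio of -0.41. Of all compared genes, 10.3% were lower and 7.43% were higher. On *qa-X* 96.3% of the reads of the strand-specific libraries were antisense.

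All 7 cytosolic ribosomal protein genes with a *crp* symbol and all 4 core histone genes were above *wt*, and none was beyond 2-fold. The medians were 0.72 for the *crp* genes and 0.58 for the histone genes on the log2 scale. With division by the summed exon counts 1 *crp* gene and 1 histone gene are beyond 2-fold. The largest ratio among the *crp* genes was that of *crp-7*, with 45660 reads in *wt* and 81769 in Δ*wc2* (1.87). Among the histone genes it was that of *hH2B*, with 12576 and 23905 reads (1.98). The heat shock genes *hsp70-1* (1.12) and *hsp80* (0.858) were near *wt*, as was *hsf-1* (0.776), while *hsp30* had 372 and 705 reads (1.97). The heterokaryon incompatibility genes *het-c* (0.805) and *het-6* (0.889) were not called.

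Of the 79 glycoside hydrolase genes, 66 were compared, 14 were lower, 5 were higher and 47 were within 2-fold, with a median log2 ratio of -0.53. The lowest was *gh28-2* (NCU06961) of the pectinase family 28, with 142 reads in *wt*, 5 in Δ*wc2* and 6 in Δ*wc1*. The other gene of this family that was called, *gh28-1*, had 7876 and 3391 reads and was 2.23-fold lower. In family 61, 9 genes were compared, of which 4 were lower and 2 were higher. *gh61-11* had 39 reads in *wt* and 4 in Δ*wc2* (9.36-fold lower) and *gh61-6* had 932 and 386 (2.32-fold lower), whereas *gh61-9* had 163 and 1157 (7.40-fold higher) and *gh61-2* had 10 and 47 (4.90-fold higher). Of all 66 genes, 21.2% were lower and 7.58% were higher, against 10.3% and 7.43% of all compared genes. The remaining 3 higher genes belong to family 18, which includes the chitinases. In this family 8 genes were compared and 5 were within 2-fold, among them *gh18-8* with 32 reads in *wt* and 16 in Δ*wc2* (ratio 0.521). *gh18-6* had 214 reads in *wt* and 1376 in Δ*wc2* (6.70-fold higher), *gh18-3* had 28 and 79 (2.94-fold) and *gh18-5* had 2852 and 6164 (2.25-fold).

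The 15 genes with the largest loss were taken from those with 100 or more reads in the higher library and an interval beyond 2-fold. Besides *vvd*, *con-8*, *eas*, *bli-4*, *cry* and *gh28-2* they include *app* (NCU04533), with 43335 reads in *wt*, 293 in Δ*wc2* and 817 in Δ*wc1*, which was 142-fold lower in Δ*wc2* than in *wt* (127 to 159.8). NCU12116 had 6159, 24 and 77 reads and was 246-fold lower (165 to 385). NCU08052 had 13875, 234 and 232 reads and was 56.9-fold lower. These 3 genes were light-induced in *wt*, up to 4.39-fold for *app*, which overlaps another gene, 19.6-fold for NCU12116 and 3.47-fold for NCU08052. NCU08095 had 8258, 201 and 63 reads (39.4-fold lower), NCU01212 had 4591, 53 and 165 (83.1-fold lower) and NCU07909 had 370, 3 and 12 (118-fold lower). NCU02061 had 281, 3 and 16 reads, and NCU09685 had 161, 6 and 9. Of the 15 genes, 9 were light-induced, against 6.22% of all compared genes. The RefSeq table gives a symbol for 7 of the 15, and none is described here for the others.

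NCU03969 had the largest ratio of all. It had 1974 reads in *wt*, 1 in Δ*wc2* and 19 in Δ*wc1*, and was 1895-fold lower in Δ*wc2* than in *wt*, with an interval from 339.7 to 74875. In the strand-specific libraries the sense reads on NCU03969 were 2, 14, 22 and 7 after 0, 30, 60 and 120 min of light. The antisense reads were 37, 589, 1104 and 405, so that 97.9% of its reads were antisense, and it overlaps another gene. The antisense reads were lowest in the dark library and highest at 60 min. The gene lies in a row with *vvd*, described below.

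The 15 genes with the largest gain were taken in the same way. NCU05126 had 39 reads in *wt*, 2768 in Δ*wc2* and 3496 in Δ*wc1*, and was 73.9-fold higher in Δ*wc2* than in *wt* (54.0 to 104). In the strand-specific *wt* libraries it was lower after light, with 334 sense reads in the dark and 229, 51 and 40 after 30, 60 and 120 min. NCU10040 had 1045, 37897 and 12631 reads and was 37.8-fold higher (35.5 to 40.2). NCU11876 had 8, 328 and 665 reads (42.7-fold, 21.4 to 99.8) and NCU05319 had 33, 833 and 699 (26.3-fold, 18.6 to 38.5). NCU10040 was thus the only one of these 4 genes with more than 100 reads in *wt*. Of the other 11 genes, *cat-3* (9.87-fold) and *neg-1* (9.69-fold, 82 and 763 reads), a gene for a β-1,6-glucanase, have a symbol. NCU07088, NCU10387, NCU11463, NCU04058, NCU05848, NCU11724, NCU05651, NCU05735 and NCU07743 lie between 10.1-fold (NCU07743) and 23.1-fold (NCU07088). Of the 15 genes, 1 (NCU05735) was light-induced and 2 were light-repressed, against 6.7% and 4.14% of all genes of the strand-specific libraries.

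The difference in absolute reads was largest mostly for other genes, *eas* being the exception. *nmt-1* (NCU09345), a thiamine synthesis gene, had 4048144 reads in *wt* and 2266506 in Δ*wc2* and was 1.71-fold lower. NCU06110 had 2684791 and 2295859 reads (1.12-fold lower). These 2 genes had the most reads in each library and neither was beyond 2-fold. Of the genes with the largest loss of scaled reads, *ccg-13* (NCU08907) with 451266 and 126706 reads (3.42-fold lower), *eas* and NCU05498 with 227484 and 76753 (2.84-fold lower) were called. The largest gains were those of NCU10051 (75876 and 239856 reads, 3.29-fold higher), NCU04276 (56300 and 176609, 3.27-fold), NCU11815 (108637 and 164339, 1.58-fold), NCU00706 (57069 and 111899, 2.04-fold) and NCU05032 (50609 and 104334, 2.15-fold). *cfp*, *ccg-14* and *emp-7* (NCU10042) were also among the genes with the most reads, and *emp-7* was nearly the same in both libraries, with 297836 and 307097 reads (1.07).

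To relate the loss of *wc-2* to the light response, genes were called light-induced when the interval of the ratio to the dark library was above 2 at 30, 60 or 120 min in the strand-specific *wt* libraries. This was the case for 526 of 7847 genes (6.7%), and 511 of them were compared in constant light. In Δ*wc2* 176 of the 511 were lower, which is 34.4%, against 10.3% of all compared genes and 8.53% of the 7383 genes that were neither light-induced nor light-repressed. Only 30 (5.87%) were higher, against 7.43% of all compared genes. The share of lower genes was thus larger among the light-induced genes, but 305 of them were within 2-fold of *wt*, and they made up 20.9% of the 843 lower genes. The median log2 ratio of the light-induced genes was -0.54, against 0.02 for the genes that were neither. Genes were called light-repressed when the interval was below 1/2 at 1 of the times and never above 2, which was the case for 4.14% of the genes. Of the 319 of them that were compared, 63 (19.7%) were higher and 37 (11.6%) were lower.

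The share of lower genes differed with the size and the time of the induction. It was 25.2% (76 of 301) for genes with an induction of up to 4-fold, 41.5% (71 of 171) for those between 4-fold and 16-fold, and 74.4% (29 of 39) above 16-fold. The median log2 ratios of these classes were -0.38, -0.75 and -1.66. Of the genes that were highest at 30 min, 62 of 262 (23.7%) were lower in Δ*wc2*. The shares were 93 of 204 (45.6%) for genes that were highest at 60 min and 21 of 45 (46.7%) for those at 120 min. The 120 min genes also had the largest share of higher genes, 9 of 45, against 4.58% and 4.41% at 30 and 60 min.

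Of the strongly induced genes, *vvd* was induced up to 127-fold, *al-1* up to 435-fold, *cry* up to 406-fold and *bli-4* up to 360.3-fold, and all were more than 10-fold lower in Δ*wc2*. *con-6* and its neighbor in number NCU08770 had the largest inductions, 1222-fold and 1611-fold, but differed less in constant light. *con-6* was 3.43-fold lower. NCU08770 had 111 reads in *wt* and 71 in Δ*wc2* (ratio 0.666). Besides NCU08770, 9 genes with more than 16-fold induction were not lower. *cao-2* (28.0-fold induction), *mig-12* (67.3-fold, 48 and 40 reads in constant light) and *crf5-1* (24.6-fold, 270 and 176 reads) were within 2-fold. NCU11512 was induced 29.0-fold and was the only one that was higher, with 78 reads in *wt* and 270 in Δ*wc2* (3.61-fold).

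**Figure D4:**
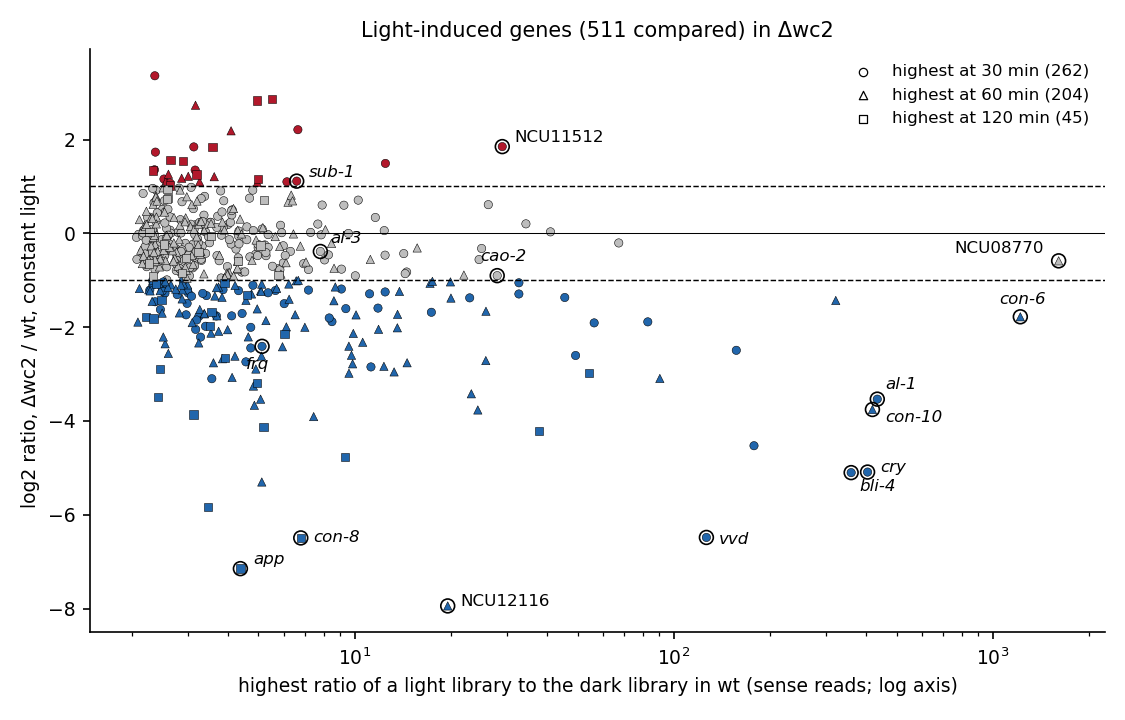
Log2 ratio in constant light (Δ*wc2* over *wt*) of the 511 compared light-induced genes against their highest ratio of a light library to the dark library in *wt* (sense reads, log axis), with the shape giving the time of the highest ratio (262, 204 and 45 genes at 30, 60 and 120 min) and blue and red marking lower and higher genes. Most genes with more than 16-fold induction are blue (29 of 39), and NCU08770, *cao-2* and NCU11512 are exceptions.

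Many genes called lower lay next to each other. The order of the genes was taken from the RefSeq annotation of NC12. Of 783 lower genes with a known place, 283 (36.1%) had a lower gene as a direct neighbor, against 15.9% of all 7848 compared genes with a place. Without neighbors that overlap, the shares were 34.4% and 14.5%. Of 574 higher genes, 116 (20.2%) had a higher neighbor, against 11.8% of all. There were 30 rows of 3 or more lower genes and 8 rows of higher genes.

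The longest row holds 7 lower genes from NCU01105 to NCU01112. NCU01107 had the most reads, 71750 in *wt* and 20354 in Δ*wc2* (3.38-fold lower). NCU01109 had 81 reads in *wt*, 2 in Δ*wc2* and 0 in Δ*wc1*. The remaining 5, NCU01105, NCU01106, NCU01108, NCU01111 and NCU01112, were between 2.69-fold and 8.57-fold lower. NCU01107, NCU01108 and NCU01112 were light-induced in *wt*. *vvd* stands in a row of 4 lower genes with NCU03966 (547 and 259 reads), NCU03968 (438 and 123) and NCU03969. *con-10* and *con-13* stand in a row with NCU07323 (21 and 10 reads) and NCU07322 (655 and 219), in which 3 genes were less than 6-fold lower and *con-10* was 13.5-fold lower. *sod-2* lies between NCU01212 (83.1-fold lower) and NCU01214, which had 233 and 60 reads (3.73-fold lower). Among the higher genes, NCU05897, NCU05899, NCU05900 and NCU05901 formed a row of 4. NCU05899 had 1920 reads in *wt* and 9733 in Δ*wc2* (5.28-fold higher), and NCU05900 had 5156 and 13853 (2.80-fold).

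The lower genes included many with antisense reads. In the strand-specific libraries 160 of 838 lower genes (19.1%) had more antisense than sense reads, against 55 of 604 higher genes (9.11%) and 602 of 8196 compared genes (7.35%). Apart from NCU03969 and *qa-X*, this applies to *con-13*, on which 98.9% of the reads were antisense, and to NCU01106 with 87.1%. No strand is stated for the constant light libraries, so the strand of these reads cannot be told apart.

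The Δ*wc1* library allows a direct comparison of the knockouts of both WCC subunits. Both were set against the same *wt* library, so only the ratio of Δ*wc2* to Δ*wc1* is counted here. Of 8137 genes with enough reads, 593 (7.29%) differed more than 2-fold between the knockouts, 425 (5.22%) being lower and 168 (2.06%) higher in Δ*wc2*. Of the 843 genes that were lower in Δ*wc2* than in *wt*, 701 (83.2%) were within 2-fold of Δ*wc1*, 87 were lower and 55 were higher than in Δ*wc1*. Of the 610 higher genes, 524 (85.9%) were within 2-fold, 39 were higher and 47 were lower. Most of the called genes were thus within 2-fold between the knockouts. The share that was not was larger than the 7.29% among all genes with enough reads. The called genes were chosen by the same Δ*wc2* library that enters this ratio. The 2 shares are therefore not a like comparison, and their difference was not tested. *vvd* was 2.71-fold lower in Δ*wc2* than in Δ*wc1* (2.22 to 3.32), *al-1* had nearly the same number of reads in both, and *eas* was 1.97-fold higher in Δ*wc2* (1.86 to 2.08).

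The called genes that lay furthest below Δ*wc1* include the neighbors *tcu-1* (NCU00830), a copper transporter gene, and NCU00829. *tcu-1* had 11417 reads in *wt*, 642 in Δ*wc2* and 5815 in Δ*wc1*. It was 17.1-fold lower in Δ*wc2* than in *wt* (15.8 to 18.5) and 8.69-fold lower than in Δ*wc1* (8.01 to 9.44). NCU00829 had 19513, 1565 and 12247 reads and was 7.51-fold lower than in Δ*wc1* (7.12 to 7.92). In Δ*wc1* *tcu-1* was 1.96-fold and NCU00829 1.59-fold below *wt*, within the 2-fold limit. NCU09049, a gene that was induced up to 23.2-fold by light, had 145, 13 and 115 reads, and NCU04879 had 382, 111 and 797. *wc-2* itself was the fifth of these genes.

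Of the genes furthest above Δ*wc1*, NCU09968 had 102 reads in *wt*, 200 in Δ*wc2* and 0 in Δ*wc1*, and NCU09969 had 98, 440 and 14. NCU05639 had 80, 183 and 24 reads and was 7.95-fold higher than in Δ*wc1* (5.18 to 12.7). NCU00798 had 415, 1449 and 337 reads and NCU05134 had 1132, 4935 and 1248, which is 4.48-fold and 4.12-fold above Δ*wc1*. NCU00798 and NCU05134 were thus close to *wt* in Δ*wc1*, whereas NCU09968, NCU09969 and NCU05639 were below *wt* there. NCU09968, NCU09969 and NCU00798 overlap other genes.

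**Figure D5:**
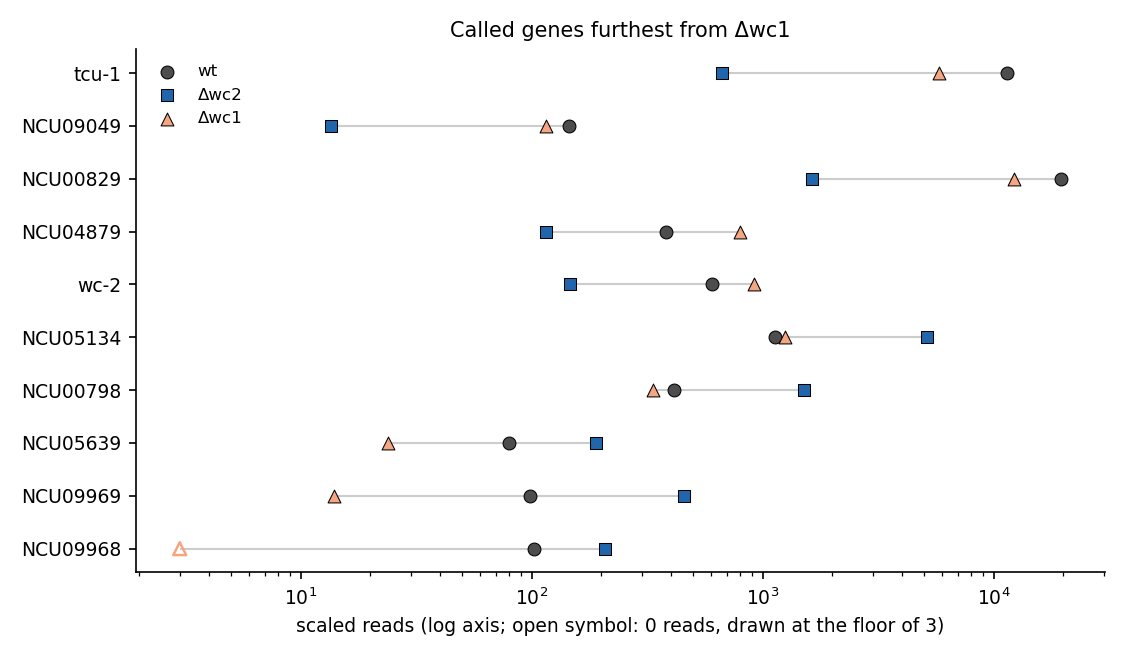
Scaled reads (log axis) in *wt* (grey circles), Δ*wc2* (blue squares) and Δ*wc1* (orange triangles), 1 library each, of the 5 lower and 5 higher genes with the largest ratio between the knockouts. For *tcu-1* and NCU00829 the Δ*wc1* value lies less than 2-fold below *wt* and the Δ*wc2* value more than 10-fold below, and NCU09968 has no read in Δ*wc1* (open symbol at the floor of 3 reads).

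The calls were also examined along the genes. Of the 457 lower genes with 2 or more exon lines that could be compared, all lines were on the same side of *wt* for 428 (93.7%) and all were beyond 2-fold for 279 (61.1%). For the higher genes these numbers were 342 and 192 (53.3%) of 360. The lines of a gene come from the same libraries and make up the sum that was called. Their agreement is therefore no independent support for the calls. The lower genes had a median of 281 reads in *wt* and the higher genes of 200, against 457 for all compared genes. Fewer than 100 reads in both libraries stood behind 247 of the lower and 109 of the higher calls.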

How the data were processed

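RNA-seq of 3 cultures in constant light and of 4 *wt* cultures after darkness was used, 1 library each. Raw read counts per exon line were deposited for each constant light culture, and these were summed per gene. How these reads were mapped and counted, the genome build and the strand are not given in the sources used here. The submitters' processing notes name Bowtie2 2.1.0, TopHat2 2.0.13 and HTSeq for all samples without a role. For the libraries after darkness (mapped to NC10 with Bowtie 2.1.0 per the study's methods) the authors deposited counts per gene for each strand, and antisense counts were used to describe strand only. Counts were scaled by median-of-ratios over genes with reads in both libraries. Genes with 20 or more reads in either library were compared. Ratios have exact (Clopper-Pearson) 95% intervals for counting error only. A library with 0 reads was set to a floor of 3 reads. edgeR tests need replicates and were not run.

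The gene lists and members were chosen with earlier results of these data known. Named were *wc-2* and its neighbors, all list members with reads, the 15 largest ratios in each direction (100 or more reads, interval beyond 2-fold), the 5 largest differences in reads, the 5 genes with most reads per library and the 5 genes furthest from Δ*wc1* in each direction. Further neighbors of *wc-2*, genes in rows and strongly induced genes that were not lower were named after their values were seen. RefSeq NC12 gave names and gene order for 9215 of 9733 genes (94.7%), and no coordinates were printed because the build of the counts is unknown. Lists by product name were reduced to symbols. For *bek-1* and *thi-4* the ID first listed differed from that of the RefSeq symbol, and the gene with the symbol was used.

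Alternatives were scaling by summed counts or TMM factors (edgeR 4.0.16, R 4.3.3) or over genes with 100 or more reads, other minimums, a pseudocount of 5, stricter calls and the exon line with the most reads. Other steps used Python 3.11.15, numpy 2.4.6, pandas 2.3.3, scipy 1.17.1 and matplotlib 3.10.9, and were tested on simulated data. The lincRNA list and its polysome values were not used.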

Additional observations from a re-analysis of the deposited data

Results flagged for a closer look

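NCU09969 differed from *wt* in opposite directions in the knockouts. It had 98 reads in *wt*, 440 in Δ*wc2* and 14 in Δ*wc1*, a log2 ratio of 2.23 for Δ*wc2* (4.68-fold higher, 3.75 to 5.88) and of -2.81 for Δ*wc1*. With 1 library each the difference was not tested. In the strand-specific libraries 60.6% of its reads were antisense, and it overlaps another gene.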

How the results depend on the processing

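The counts of lower and higher genes stayed within 1.5 times of 843 and 610 under every change of scaling, minimum, pseudocount or exon line that was run, but not under stricter calls. With the interval beyond 2-fold they were 475 and 355, and beyond 4-fold 207 and 112. The extremes among the other settings were 596 (minimum of 100 reads) and 1027 (no minimum) for lower genes and 459 (without overlapping genes) and 833 (summed exon counts) for higher genes. The setting without overlapping genes (710 lower) and summed counts without the 2 genes with most reads (736 and 706) were added after seeing the data. With TMM factors the counts were 832 and 618. All 628 genes that were lower with summed counts were among the 843. The log2 ratio of *wc-2* was -2.04, and -6.60 on its exon line with the most reads. The share of light-induced genes that were lower (34.4%) was 30.1% when the ratio alone defined induction, 38.8% with light libraries scaled by summed sense counts and 28.4% with constant light libraries scaled by summed exon counts. With summed exon counts the calls of *cat-1* and *qa-X* are lost and those of *hsp30*, *nit-2*, *acu-3*, *ars-1*, *hH2B* and *crp-7* as higher are gained, and 10 instead of 14 glycoside hydrolase genes are lower and 6 instead of 5 higher. Of 225 single values, 103 moved beyond their counting interval with summed exon counts, 67 with the exon line with the most reads, 33 with scaling over genes with 100 or more reads, 7 with TMM factors and 1 with the pseudocount, and no called value turned its direction. No paired analysis was possible because each group has 1 library. Depth limits the genes with few reads: 247 of the 843 lower genes had fewer than 100 reads in both libraries.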
